A study of Mus musculus with 17 samples.

Results

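The cell death machinery of 32D cells, an IL-3-dependent mouse myeloblast-like line, was followed through 35 genes of the Bcl2 family, the caspases and the death receptors. The genes were taken by symbol and function, by a rule that uses no measured value, though with earlier results of these data known. Of the 35 genes, 34 had a value among the 20227 genes measured, and the effector Bax was not analysed here. RNA from 17 cultures was hybridised to Affymetrix Mouse Exon 1.0 ST arrays, which carry separate probe sets for single exons. Parental cells (2 arrays), cells with the empty retroviral vector pLXRN (2) and cells with human wild-type FLT3 (2) were kept in mouse IL-3 (1 ng/mL). Cells with wild-type FLT3 given FLT3 ligand at 20 ng/mL formed a further group (2 arrays), for which the protocol does not say outright whether IL-3 was kept. The titles of that group could also mean that the ligand was transduced, and they were read here by the growth protocol. In the fifth group, 9 lines each carried a different human FLT3 mutant with an internal tandem duplication (ITD), and these grew without IL-3. The mutants and the absence of IL-3 cannot be told apart in this design. The transduced lines were polyclonal populations, those with vector or wild-type FLT3 were selected with G418, and the paired control arrays are called biological replicates in the labels. Whether a pair came from separate lines or from cultures of 1 line is not given in the sources used here. The spread within a pair may thus be technical. The p-values of all comparisons rest on 1 spread per gene, pooled over the control pairs and the 9 lines with different mutants.

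Commitment to apoptosis is decided at the mitochondrion, where anti-death Bcl2 proteins hold the effectors Bax and Bak in check and BH3-only proteins release that hold. Permeabilised mitochondria let out cytochrome c, which with Apaf1 activates caspase 9, while Diablo relieves the block that IAP proteins place on caspases. Death receptors of the tumour necrosis factor receptor family reach the caspases from the cell surface through Fadd, Tradd and caspase 8. In myeloid cells that depend on IL-3, the cytokine is known to sustain Bcl2 and Bcl-xL (the product of Bcl2l1), and its withdrawal is known to engage BH3-only proteins such as Bim (the product of Bcl2l11).

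All levels below are log2 signals, a gene value being the mean of its probe sets, and all differences are log2 differences ± the standard error (SE) of a limma fit over all genes. Calls rest on an adjusted p below 0.05 (Benjamini-Hochberg over the 20227 genes). Probe sets differ in how strongly they hybridise, so a level is compared between groups for the same gene or list, not between genes. Array medians lay between 4.63 and 4.69. Flt3 probe sets, which also read the human transgene, averaged 5.25 in parental and 5.19 in vector cells, 6.76 in wild-type and 6.89 in ligand cultures, and lay between 7.08 and 7.32 in the ITD lines. Of a 6-gene myeloblast list, 5 genes were measured, and their mean lay between 9.98 and 10.88 over the 17 arrays. Of these, Mpo, Prtn3, Ctsg and Myb had group means of 10.01 or more, while Kit had group means of only 5.50 to 5.75. The mean of the 4 measured genes of a lymphoid list lay between 5.11 and 5.87. Other marker lists moved with the groups. Neutrophil genes averaged 7.68 to 9.54 in the ITD lines against 9.80 to 10.63 in the parental, vector and wild-type cultures, and monocyte genes 6.25 to 7.24 against 7.37 to 8.72. Ligand cultures averaged 9.45 to 9.63 for the neutrophil genes and 8.56 to 8.59 for the monocyte genes. Not every gene followed its list. Monocyte gene Ctss was at 6.27 in the ITD lines and 5.23 in parental cells, and neutrophil gene Camp at 6.58 in the ITD lines and 6.38 in wild-type cells. Mast cell, basophil and eosinophil genes averaged 8.86 to 11.19 in the ITD lines, 12.38 to 12.50 in parental, 10.14 to 10.17 in vector and 7.53 to 7.63 in wild-type cells. Interferon response genes averaged 8.18 to 8.26 in vector cells and at most 6.71 in all others. The part of these shifts in the cell death genes was not tested. In bulk RNA, fewer cells of a type and less RNA per cell cannot be told apart.

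In the ITD lines, 10 of the 34 genes were called against the IL-3 controls, which are the parental, vector and wild-type groups at equal weight. This was 29.4% of the genes, against 19.4% of all genes measured (11.2% higher and 8.15% lower). The count fell to 4 without the vector line (Bcl2l1, Bak1, Bmf and Birc3) and to 1 with each control line averaged to a single unit (Bcl2l1), where Bak1, Bmf and Birc3 had adjusted p of 0.084, 0.1 and 0.0845. Calls over all 20227 genes fell likewise, from 3917 to 2221 without the vector line and to 466 with the averaged lines. The anti-death genes Bcl2 and Bcl2l1 and the cytochrome c gene Cycs rose. The effectors Bak1 and Bok, the BH3-only genes Bmf and Hrk, the IAP gene Birc3, the executioner caspase gene Casp6 and the receptor gene Tnfrsf1a fell. The median difference of the 34 genes was 0.01, against -0.01 for all genes, and the median size of a difference was 0.17 against 0.14. Differences ran from -0.44 to 0.57, so none reached a doubling. In only 2 genes, Bmf and Birc3, were all 9 ITD values below all 6 control values. Such separation was found in 2.37% of all genes.

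**Figure D1:**
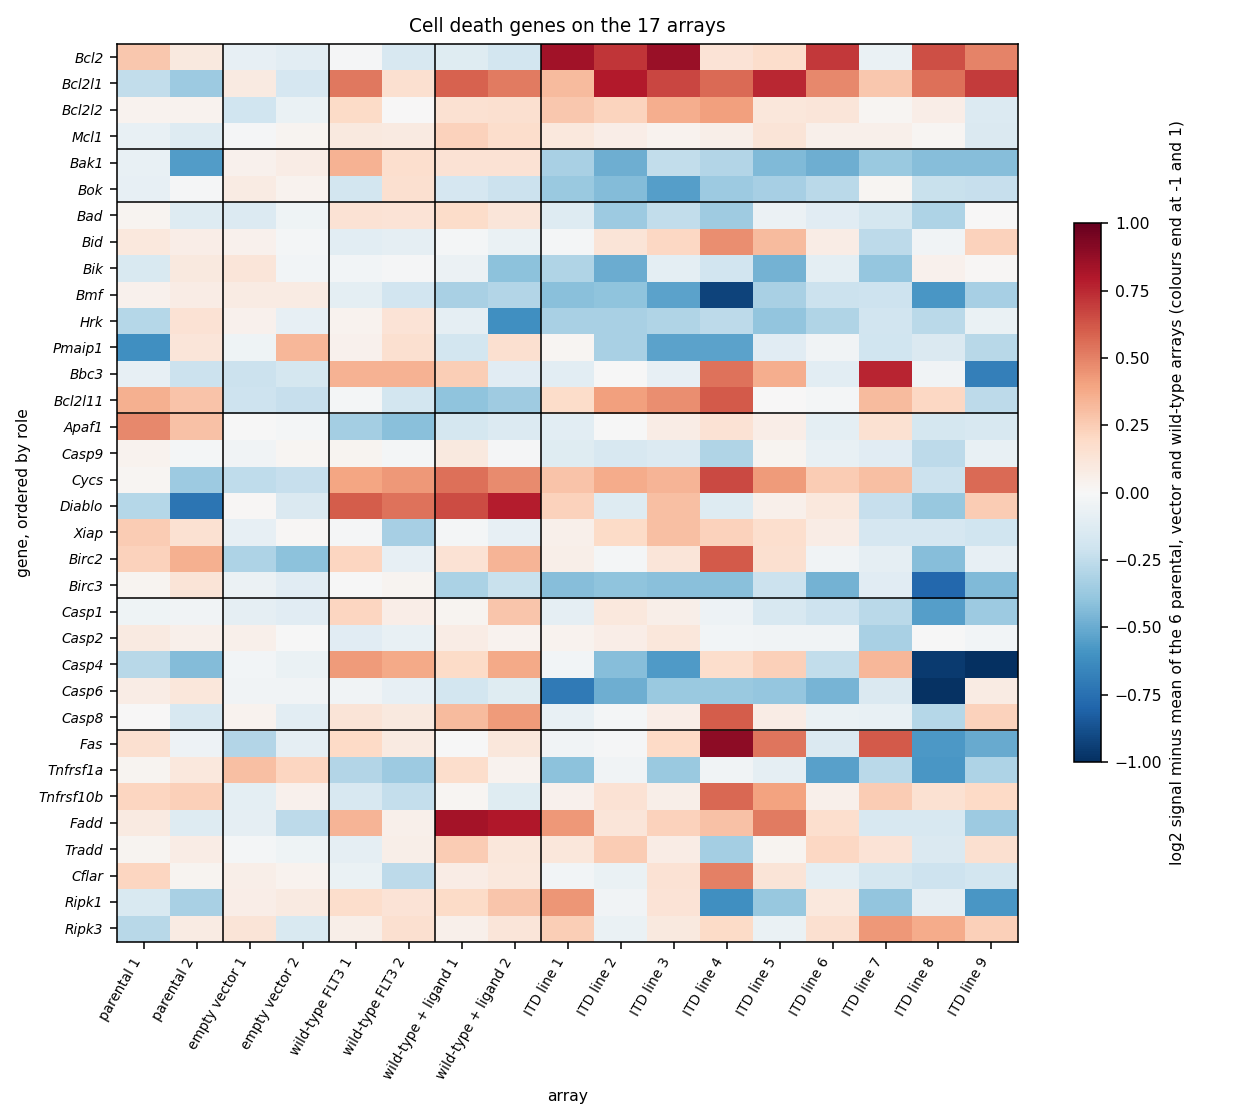
Log2 signal of the 34 measured cell death genes (vertical axis, ordered by role) on the 17 arrays (horizontal axis, by group), each minus the gene's mean over the 6 parental, vector and wild-type arrays, with colours ending at -1 and 1. Red fills most of the Bcl2 and Bcl2l1 cells in the ITD columns, blue those of Bak1, Bmf and Birc3, and Diablo and Cycs differ more among the control groups than most genes do.

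Promoter windows of 4 of the cell death genes are shown as examples of windows with a match to a motif of a factor known from cytokine or stress signalling. Of these genes, Bcl2l11 was not called against the IL-3 controls. The other windows of Bcl2l1, Bmf and Bcl2l11 held no match to a motif searched. The windows run from 250 bases before to 50 after an annotated start and were taken from RefSeq (GRCm38.p6), which gave 44 windows for 31 of the genes. Capitals mark the match, and each sequence is on the strand of its gene. Bcl2l1 (chr2:152830668-152830967, minus strand) and Bmf (chr2:118544538-118544837, minus strand) each hold a kappaB motif. Bcl2l11 (chr2:128125788-128126087, plus strand) holds the FoxO motif TGTTTAC, found here on the opposite strand as its reverse complement. Cycs (chr6:50566520-50566819, minus strand) holds the CRE motif TGACGTCA.
Bcl2l1: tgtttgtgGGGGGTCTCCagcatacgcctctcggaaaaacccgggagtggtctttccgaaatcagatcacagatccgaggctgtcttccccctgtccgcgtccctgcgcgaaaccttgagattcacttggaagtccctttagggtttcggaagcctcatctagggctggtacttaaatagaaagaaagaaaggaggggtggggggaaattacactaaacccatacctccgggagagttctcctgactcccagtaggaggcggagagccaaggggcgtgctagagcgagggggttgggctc
Bmf: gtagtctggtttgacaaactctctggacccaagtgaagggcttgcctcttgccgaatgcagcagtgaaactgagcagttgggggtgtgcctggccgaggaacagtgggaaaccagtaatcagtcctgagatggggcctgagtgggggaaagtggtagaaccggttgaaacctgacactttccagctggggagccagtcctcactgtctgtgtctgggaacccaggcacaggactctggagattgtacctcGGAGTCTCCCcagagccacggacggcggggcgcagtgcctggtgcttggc
Bcl2l11: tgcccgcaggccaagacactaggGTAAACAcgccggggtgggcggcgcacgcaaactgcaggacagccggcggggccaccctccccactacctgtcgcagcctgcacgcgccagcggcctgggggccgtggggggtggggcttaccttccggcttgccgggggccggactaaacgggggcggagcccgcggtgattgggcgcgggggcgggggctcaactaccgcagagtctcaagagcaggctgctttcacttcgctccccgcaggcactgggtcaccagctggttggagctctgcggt
Cycs: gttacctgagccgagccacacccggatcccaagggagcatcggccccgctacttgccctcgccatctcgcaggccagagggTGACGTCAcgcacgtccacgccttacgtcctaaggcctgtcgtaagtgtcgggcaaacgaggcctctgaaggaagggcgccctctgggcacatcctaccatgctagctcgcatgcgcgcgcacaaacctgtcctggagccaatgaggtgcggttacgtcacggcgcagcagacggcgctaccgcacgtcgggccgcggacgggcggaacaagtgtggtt

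Searched on both strands, the kappaB motif was in 7 of the 44 windows (15.9%) against 8.46% of all 32851 windows, in Bbc3, Bcl2l1, Bmf, Casp4, Hrk and Xiap. The FoxO motif was in 4 windows (9.09% against 3.65%) of Bbc3, Bcl2l11 and Casp4. The CRE motif was in 2 windows (4.55% against 1.79%), of Birc2 and Cycs. The STAT motif TTCNNNGAA was in 3 windows (6.82% against 8.3%), of Fas, Ripk1 and Tnfrsf1a. The E-box CACGTG was in 5 (11.4% against 7.15%). Of the kappaB genes, Bcl2l1 rose in the ITD lines and Bmf and Hrk fell. Several genes had more than 1 window and some windows overlap, and a match is only a run of letters.

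Of the 4 anti-death genes, 2 rose in the ITD lines and none fell (50%, against 19.4% of all genes called, 11.2% higher). The list's median difference was 0.33. Bcl2, whose protein sequesters BH3-only proteins and effectors, was at 10.17 and 10.00 in parental cells, 9.82 and 9.80 in vector cells, 9.89 and 9.74 in wild-type cells and 9.78 and 9.72 in ligand cultures. The ITD lines ran from 9.84 to 10.77 with a median of 10.55. Bcl2 was above all 8 control arrays in 6 ITD lines, while lines 4, 5 and 7, at 10.04, 10.08 and 9.84, lay among the control arrays. The difference was 0.50 ± 0.13 (limma adjusted p = 0.013), a 1.42-fold higher signal. It was 0.32 against parental, 0.60 against vector, 0.59 against wild-type and 0.65 against ligand cultures, and none of these single comparisons passed the threshold. With the vector line left out of the controls, the difference was 0.45 and the call was lost (adjusted p = 0.0747).

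Bcl2l1, the gene of Bcl-xL, had the largest difference from the IL-3 controls of the 34 genes. It was at 6.57 and 6.46 in parental, 6.91 and 6.65 in vector, 7.35 and 6.98 in wild-type and 7.41 and 7.34 in ligand cultures. In the ITD lines it lay between 7.09 and 7.61, with a median of 7.39. The ITD lines were above all parental and vector arrays and overlapped the wild-type and ligand arrays. The difference was 0.57 ± 0.09 (limma adjusted p = 0.000346), and the call held under all 25 alternatives run. Against parental cells it was 0.87 ± 0.13 (adjusted p = 0.000235) and against vector cells 0.61 ± 0.13 (adjusted p = 0.00633). Against wild-type cells it was 0.22 and against ligand cultures 0.01, neither past the threshold. The 2 remaining anti-death genes, Bcl2l2 (Bcl-w) and Mcl1, were not called in any comparison. Bcl2l2 differed from the IL-3 controls by 0.16 (adjusted p = 0.187) and Mcl1 by 0.04 (adjusted p = 0.567). Mcl1 group means stayed between 11.10 and 11.41.

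**Figure D2:**
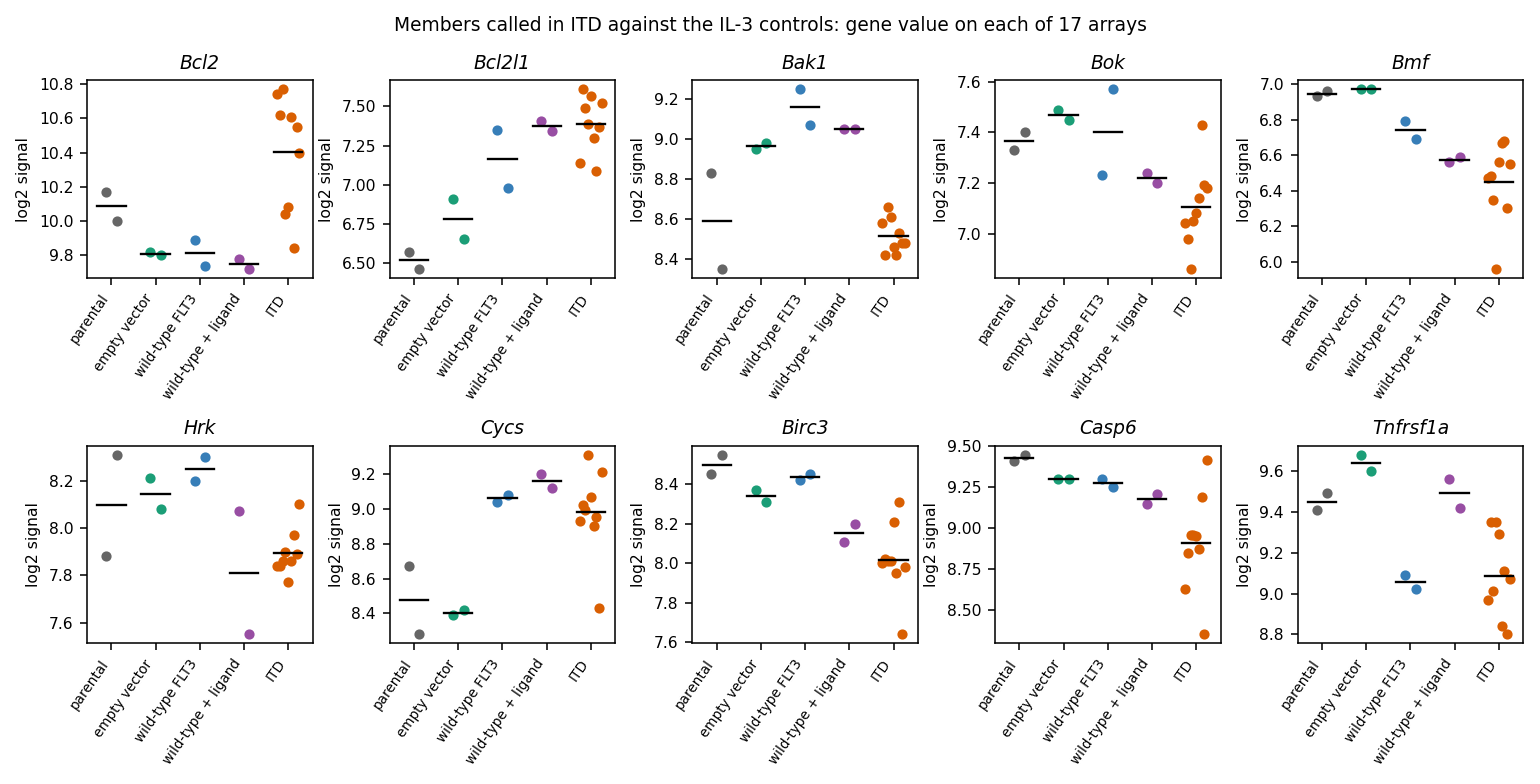
Log2 signal (vertical axes, each on its own range) of the 10 genes called in the ITD lines against the IL-3 controls, 1 point for each of the 17 arrays and a bar at each group mean. Bcl2l1 climbs from parental cells at 6.46 and 6.57 to ITD lines between 7.09 and 7.61, with ligand cultures at the same height, while the 9 ITD values of Bmf and of Birc3 lie below all 6 IL-3 control values.

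Both measured effectors fell, where 19.4% of all genes were called, 8.15% lower. Bak1, whose product forms pores in the outer mitochondrial membrane, was at 8.83 and 8.35 in parental, 8.95 and 8.98 in vector, 9.25 and 9.07 in wild-type and 9.05 and 9.05 in ligand cultures. Its 9 ITD values ran from 8.42 to 8.66 (median 8.48). All 9 ITD lines were below the vector, wild-type and ligand arrays, whereas the 2 parental arrays lay on either side of them. The difference from the IL-3 controls was -0.39 ± 0.07 (limma adjusted p = 0.00106). Bak1 was called lower against 3 of the 4 control groups, which held for no other member: -0.45 ± 0.11 against vector (adjusted p = 0.00918), -0.65 ± 0.11 against wild-type (adjusted p = 0.00119) and -0.53 ± 0.11 against ligand cultures (adjusted p = 0.00557). Against parental cells the difference was -0.07.

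Bok, a Bak-like effector, was at 7.33 and 7.40 in parental, 7.49 and 7.45 in vector, 7.23 and 7.57 in wild-type and 7.24 and 7.20 in ligand cultures. Across the ITD lines, the lowest value was 6.86, the median 7.08 and the highest 7.43. Line 7 lay among the controls, and the 8 other lines were below all 8 control arrays. Bok fell by 0.31 ± 0.08 (limma adjusted p = 0.0119). The call against vector cells alone was -0.37 ± 0.12 (adjusted p = 0.0487). Without wild-type replicate 2, the difference from the IL-3 controls was -0.25 and its adjusted p was 0.0587.

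Of the 8 BH3-only genes, 2 fell and none rose (25%, against 19.4% of all genes called, 8.15% lower). The median difference was -0.21. Bmf, whose protein is known to respond to loss of anchorage, was at 6.93 and 6.96 in parental, 6.97 and 6.97 in vector, 6.79 and 6.69 in wild-type and 6.56 and 6.59 in ligand cultures. The ITD lines ran from 5.96 to 6.68 with a median of 6.48. They lay below the 6 IL-3 control arrays and overlapped the ligand arrays. The difference was -0.44 ± 0.09 (limma adjusted p = 0.00347), with -0.50 ± 0.14 against parental (adjusted p = 0.0192) and -0.52 ± 0.14 against vector cells (adjusted p = 0.0188). Against wild-type cells it was -0.30 and against ligand cultures -0.13, neither called.

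Hrk, a BH3-only gene best known from neurons deprived of growth factor, was at 7.88 and 8.31 in parental, 8.21 and 8.08 in vector, 8.20 and 8.30 in wild-type and 8.07 and 7.55 in ligand cultures. In the ITD lines it lay between 7.77 and 8.10, with a median of 7.86. They overlapped parental replicate 1, vector replicate 2 and 1 ligand array, and the other ligand array was below them all. Hrk fell by 0.27 ± 0.08 (limma adjusted p = 0.0347), a call lost when any of 10 of the 15 arrays was left out. It was at -0.20 without parental replicate 2 (adjusted p = 0.147).

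Bcl2l11, the gene of Bim, was at 7.88 and 7.81 in parental, 7.32 and 7.29 in vector, 7.50 and 7.34 in wild-type and 7.12 and 7.17 in ligand cultures. Its 9 ITD values ran from 7.26 to 8.14 (median 7.73). They held the parental, vector and wild-type values within their range and were all above the ligand cultures. The difference from the ligand cultures was 0.59 ± 0.17 (limma adjusted p = 0.0447) and that from the IL-3 controls 0.21 (adjusted p = 0.21). The ligand call was lost without either ligand array (adjusted p = 0.319 and 0.279) and without ITD lines 1, 2, 3, 7 or 8. The 5 other BH3-only genes, Bad, Bid, Bik, Pmaip1 (Noxa) and Bbc3 (Puma), were not called in any comparison. Bad came near the threshold against ligand cultures at -0.35 (adjusted p = 0.0507) and wild-type cells at -0.34 (adjusted p = 0.0516), with all ITD lines lower in both, and against the IL-3 controls at -0.20 (adjusted p = 0.0541). Bik differed from the IL-3 controls by -0.22 (adjusted p = 0.12). Bbc3 and Pmaip1, both known p53 targets, differed from the IL-3 controls by 0.07 and -0.24.

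Among the 7 genes of the apoptosome and its regulators, 1 rose and 1 fell against the IL-3 controls, with a median difference of 0.01. These calls were 28.6% of the list, against 19.4% of all genes. Cycs, which encodes cytochrome c, was at 8.67 and 8.28 in parental, 8.39 and 8.42 in vector, 9.04 and 9.08 in wild-type and 9.20 and 9.12 in ligand cultures. Across the ITD lines, the lowest value was 8.43, the median 8.99 and the highest 9.31. Line 8, at 8.43, lay among the parental and vector arrays, and the 8 other lines were above all 4 of those. Cycs rose by 0.33 ± 0.11 (limma adjusted p = 0.0396), by 0.50 ± 0.16 against parental (adjusted p = 0.0379) and by 0.57 ± 0.16 against vector cells (adjusted p = 0.0236). Against wild-type cells the difference was -0.08. The call against the IL-3 controls was lost when any of 12 of the 15 arrays was left out, down to 0.27 without parental replicate 2 (adjusted p = 0.146).

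Birc3, an IAP known to ubiquitinate Ripk1, was at 8.45 and 8.55 in parental, 8.37 and 8.31 in vector, 8.42 and 8.45 in wild-type and 8.11 and 8.20 in ligand cultures. The ITD lines ran from 7.64 to 8.31 with a median of 8.01. All 9 were below the IL-3 controls, although line 7 and vector replicate 2 both round to 8.31, and 7 were below the ligand arrays too. Birc3 fell by 0.41 ± 0.08 (limma adjusted p = 0.00204), by 0.48 ± 0.12 against parental (adjusted p = 0.00978) and by 0.42 ± 0.12 against wild-type cells (adjusted p = 0.043). The neighbouring IAP genes Birc2 and Xiap differed from the IL-3 controls by 0.04 and 0.05 and were not called in any comparison. Casp9 was not called either (-0.14, adjusted p = 0.118), although 8 of the 9 ITD lines were below all 8 control arrays.

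Diablo and Apaf1 differed from parental and from wild-type cells in opposite directions, and their differences from the mean of the IL-3 controls were 0.01 and -0.01. Diablo, the antagonist of IAP proteins, was at 7.91 and 7.47 in parental, 8.21 and 8.05 in vector, 8.80 and 8.74 in wild-type and 8.85 and 8.98 in ligand cultures. In the ITD lines it lay between 7.82 and 8.50, with a median of 8.25. All ITD lines were below the wild-type and ligand arrays, and 8 of 9 were above both parental arrays. Diablo was higher in the ITD lines than in parental cells by 0.52 ± 0.16 (limma adjusted p = 0.0331), and lower than in wild-type cells (-0.56 ± 0.16, adjusted p = 0.0381) and ligand cultures (-0.71 ± 0.16, adjusted p = 0.0124). Wild-type cells themselves exceeded parental cells by 1.08 ± 0.20 (adjusted p = 0.00148), a contrast added after the data were seen and called in 14.6% of all genes. This contrast follows from the opposite differences by which Diablo and Apaf1 were picked, so it is no separate test. Without parental replicate 2, the ITD difference from parental cells was 0.30 (adjusted p = 0.504).

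Apaf1, the scaffold of the apoptosome, was at 9.60 and 9.41 in parental, 9.11 and 9.10 in vector, 8.78 and 8.70 in wild-type and 8.94 and 8.98 in ligand cultures. Its 9 ITD values ran from 8.94 to 9.27 (median 9.11). They were below both parental arrays and above both wild-type arrays. The differences were -0.40 ± 0.10 against parental (limma adjusted p = 0.00849) and 0.37 ± 0.10 against wild-type cells (adjusted p = 0.0289), while wild-type minus parental was -0.77 ± 0.13 (adjusted p = 0.000458). The first was lost without parental replicate 1 (adjusted p = 0.19) and the second without either wild-type array.

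Of the 5 caspase genes outside the apoptosome, Casp6 fell (20%, against 19.4% of all genes called, 8.15% lower). No other was called in any comparison. Casp6, an executioner caspase, was at 9.41 and 9.45 in parental, 9.30 and 9.30 in vector, 9.30 and 9.25 in wild-type and 9.15 and 9.21 in ligand cultures. Across the ITD lines, the lowest value was 8.35, the median 8.95 and the highest 9.42. Lines 7 and 9, at 9.19 and 9.42, lay among the controls, and the 7 other lines were below all 8 control arrays. Casp6 fell by 0.42 ± 0.12 (limma adjusted p = 0.0198). The differences from single control groups ran from -0.52 against parental to -0.27 against ligand cultures, none called, and the call was lost without parental replicate 2 (adjusted p = 0.0536) or wild-type replicate 1 (adjusted p = 0.0502). The inflammatory caspase genes Casp1 and Casp4 differed from the IL-3 controls by -0.17 and -0.30, the initiator genes Casp2 and Casp8 by -0.03 and 0.05.

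Of the 8 genes of the death receptor pathway, 1 fell against the IL-3 controls (12.5%, against 19.4% of all genes called, 8.15% lower). Tnfrsf1a, the main receptor of tumour necrosis factor, was at 9.41 and 9.49 in parental, 9.68 and 9.60 in vector, 9.09 and 9.02 in wild-type and 9.56 and 9.42 in ligand cultures. The ITD lines ran from 8.80 to 9.35 with a median of 9.07. They were below the parental, vector and ligand arrays and overlapped the wild-type arrays. Tnfrsf1a fell by 0.29 ± 0.09 (limma adjusted p = 0.0281) and by 0.55 ± 0.13 against vector cells (adjusted p = 0.00994). Against wild-type cells the difference was 0.03. The call against the IL-3 controls was lost when any of 7 of the 15 arrays was left out (adjusted p up to 0.0783).

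Fadd, the adaptor that brings caspase 8 to death receptors, was at 7.72 and 7.50 in parental, 7.54 and 7.37 in vector, 7.97 and 7.68 in wild-type and 8.46 and 8.43 in ligand cultures. In the ITD lines it lay between 7.27 and 8.15, with a median of 7.80. All were below both ligand arrays and overlapped the other 3 control groups. The difference from ligand cultures was -0.70 ± 0.18 (limma adjusted p = 0.0301), a call lost without either ligand array (adjusted p = 0.258 and 0.246). The 6 other genes of the pathway, Fas, Tnfrsf10b (the mouse TRAIL receptor), Tradd, Cflar (c-FLIP), Ripk1 and Ripk3, were not called in any comparison. Tnfrsf10b came near the threshold against wild-type cells, at 0.41 with all ITD lines higher (adjusted p = 0.0551), and differed from the IL-3 controls by 0.21 (adjusted p = 0.0952).

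Against single control groups, which share the ITD arrays, the called genes were not the same. Against parental cells 6 of 34 were called, or 17.6%, against 17% of all genes (10.3% higher and 6.72% lower): Bcl2l1, Cycs and Diablo higher, and Bmf, Apaf1 and Birc3 lower. Against vector cells 6 were called (17.6%, against 14% of all genes, 8.82% higher and 5.21% lower): Bcl2l1 and Cycs higher, and Bak1, Bok, Bmf and Tnfrsf1a lower. Against wild-type cells 4 were called (11.8%, against 7.71% of all genes, 3.27% higher and 4.44% lower): Apaf1 higher, and Bak1, Diablo and Birc3 lower. Against ligand cultures 4 were called (11.8%, against 5.8% of all genes, 1.72% higher and 4.08% lower): Bcl2l11 higher, and Bak1, Diablo and Fadd lower. No member of the set was called in the same direction against all 3 IL-3 control groups, as 0.391% of all genes were upwards and 0.771% downwards, or against all 4 control groups (0.109% and 0.494%). Over the 8 contrasts, 14 of the 34 genes were called at least once and 20 in none, and the share over all genes was not counted. Of the 20 calls against a single control group, 19 were lost when 1 of the 2 arrays of that group was left out, with adjusted p from 0.0503 to 0.504. The exception was Bcl2l1 against parental cells. Calls over all genes also fell in every fit that left 1 array in the control group, so this loss was not particular to the set.

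**Figure D3:**
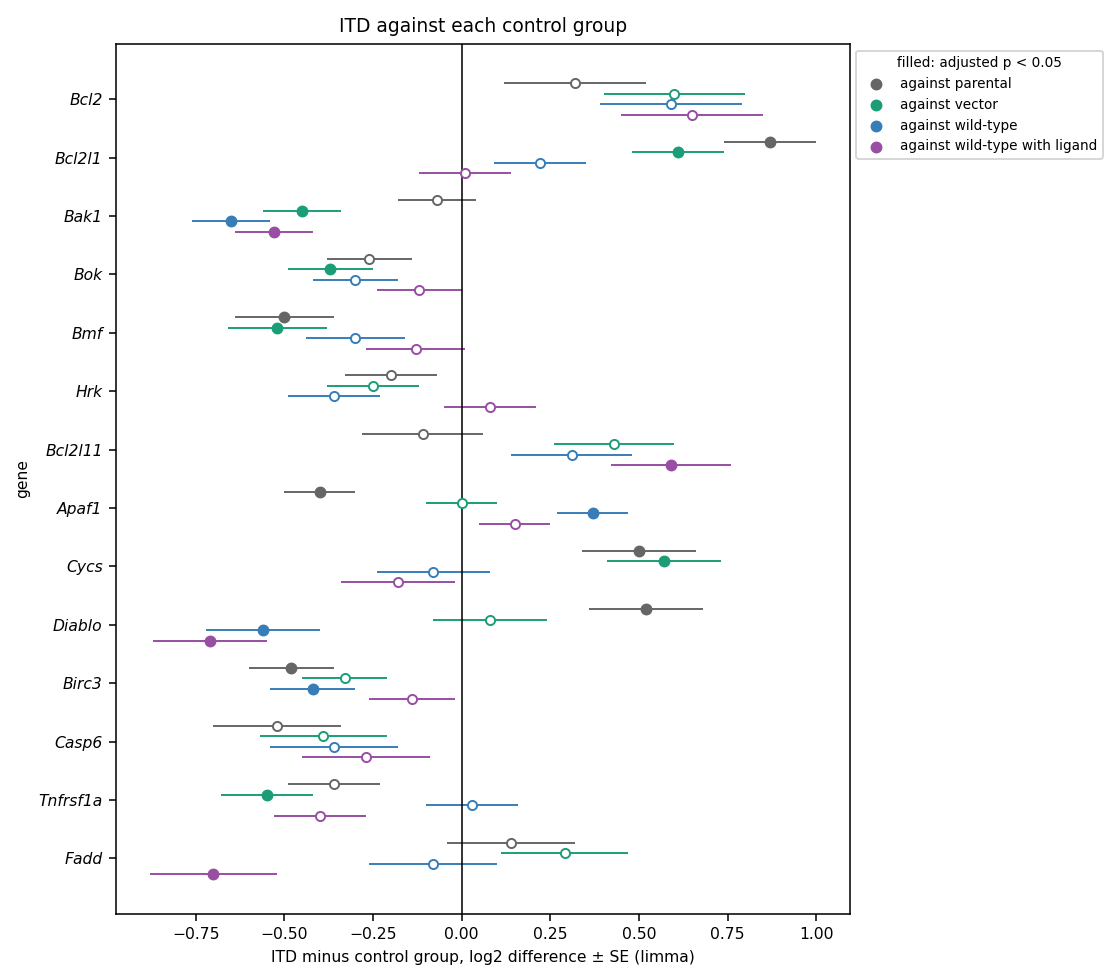
Log2 difference of the ITD lines (mean of 9) from each control group (mean of 2) with its standard error from limma, for the 14 genes called in at least 1 contrast, where filled points passed an adjusted p of 0.05. Bak1 sits near 0 against parental cells and from -0.65 to -0.45 against the 3 other groups, Bcl2l1 shrinks from 0.87 against parental cells to 0.01 against ligand cultures, and Diablo and Apaf1 change sign.

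The comparisons among the control groups held 1 call. In wild-type against vector cells, Tnfrsf1a was lower (-0.58 ± 0.17, limma adjusted p = 0.0415) and was the only gene called, or 2.94% of 34 against 8.22% of all genes (2.71% lower). This call was lost without any 1 of its 4 arrays, with adjusted p from 0.151 to 0.215. Cycs, Diablo and Bbc3 had differences of 0.65, 0.64 and 0.54 there that did not pass. Vector against parental cells gave 0 calls among the 34 by limma, where 2.23% of all genes were called at the same adjusted threshold. In 5 of the 34 the unadjusted p was under 0.05, a cut not counted over all genes. Ligand on wild-type cells gave 0 calls among the 34 and 0% of all genes. At an unadjusted p under 0.05, again not counted over all genes, 3 of the 34 passed. These were Fadd at 0.62, Tnfrsf1a at 0.43 and Hrk at -0.44, and the lowest adjusted p was 0.536. With only the 2 compared groups in the fit, 949 genes were called, Fadd (adjusted p = 0.0244) and Tnfrsf1a (adjusted p = 0.0246) among them.

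Some single probe sets, which read parts of a transcript, differed by more than the gene means. The 34 genes had 448 probe sets in use, of which 30 were higher and 49 lower in the ITD lines than in the IL-3 controls, while of all probe sets 19.9% were called, 12.3% higher and 7.61% lower. For Bcl2, all 12 probe sets had a difference above 0 and 9 were called. For Bcl2l1, 9 of 16 were called higher and 2 lay below 0. Its probe set 4389229 averaged 5.44 in parental, 6.26 in vector, 7.27 in wild-type, 7.85 in ligand and 8.08 in ITD arrays. The ITD values of that probe set, 7.82 to 8.60, were all above the IL-3 control values of 5.14 to 7.70, and the difference was 1.76 ± 0.18 (limma adjusted p = 2.63e-06 over all probe sets).

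Probe sets of Bmf did not move as one. Its probe set 5377758 averaged 7.92 in parental, 7.96 in vector, 7.48 in wild-type, 7.36 in ligand and 6.48 in ITD arrays. It differed from the IL-3 controls by -1.31 ± 0.19 (limma adjusted p = 8.5e-05), and 3 of the 6 Bmf probe sets were called lower while 1 lay above 0. Birc3 had 9 of 17 probe sets lower, Tnfrsf1a 8 of 17, Bak1 6 of 9, Casp6 5 of 10, and Cycs had 3 of 6 higher. Genes without a call as a whole also held called probe sets. Casp1 had 5 lower and 1 higher of 15, led by probe set 4850239 at -0.74 (adjusted p = 0.000214), in which all ITD values were below the IL-3 controls. Bcl2l11 had 3 of 20 higher. Where in each transcript these probe sets lie was not analysed here.

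**Figure D4:**
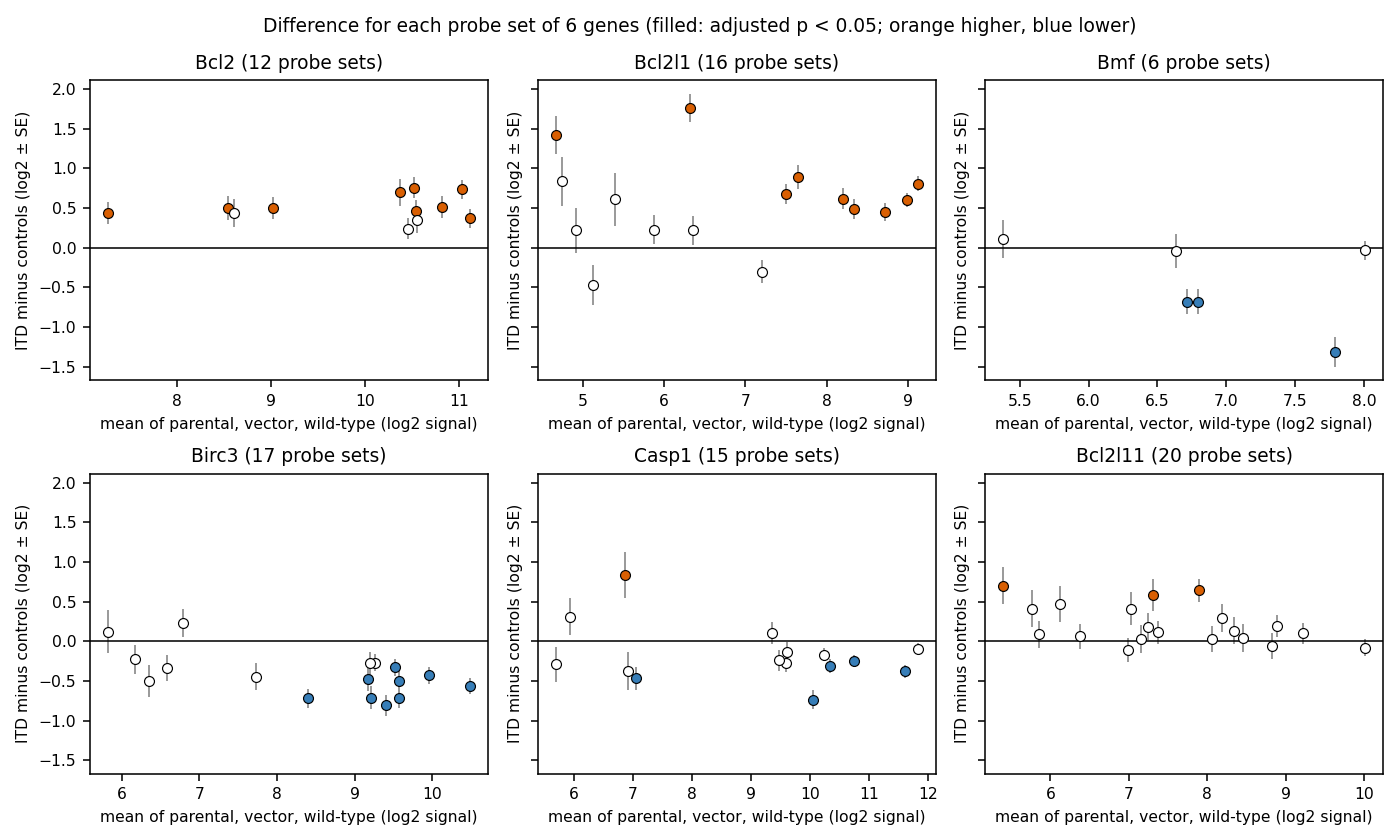
Log2 difference of ITD lines from the IL-3 controls with its standard error (vertical axis) for each probe set of 6 genes, against the mean log2 signal of that probe set in the 3 control groups (horizontal axis). Filled points passed an adjusted p of 0.05 over all probe sets, and the differences furthest from 0 are 1.76 and 1.42 for Bcl2l1 and -1.31 for Bmf.

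The 9 ITD lines differed from each other more in some genes than in others. The SD over the ITD lines was 0.55 for Casp4, 0.50 for Fas, 0.43 for Bbc3, 0.36 for Ripk1, 0.34 for Bcl2 and 0.30 for Casp6. The pooled SD within the 4 control pairs was 0.09, 0.12, 0.14, 0.07, 0.08 and 0.03 for the same genes, a spread between like cultures and not between mutants. For Bak1 the order was the reverse, 0.08 in the ITD lines and 0.18 in the control pairs.

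Lines 4, 5 and 7 took the same place in several of these genes, a pattern noticed in the values and given here as a description. Fas, which encodes the receptor of Fas ligand, was at 7.79, 7.43 and 7.51 in lines 4, 5 and 7 and between 6.32 and 7.09 in the 6 other lines. The same 3 lines were the highest for Bbc3 (8.60, 8.42 and 8.82) and Casp4 (9.79, 9.85 and 9.95), and the lowest for Bcl2. For Ripk1 they lay at 8.26, 8.49 and 8.48, with line 9 at 8.29. Lines 8 and 9 had the lowest values of Fas (6.32 and 6.39) and Casp4 (8.66 and 8.35). Lines 4, 5 and 7 also had the lowest means of the myeloblast list among the ITD lines (10.03, 10.17 and 9.98, against 10.37 to 10.61), and the part of this in the pattern was not tested.

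**Figure D5:**
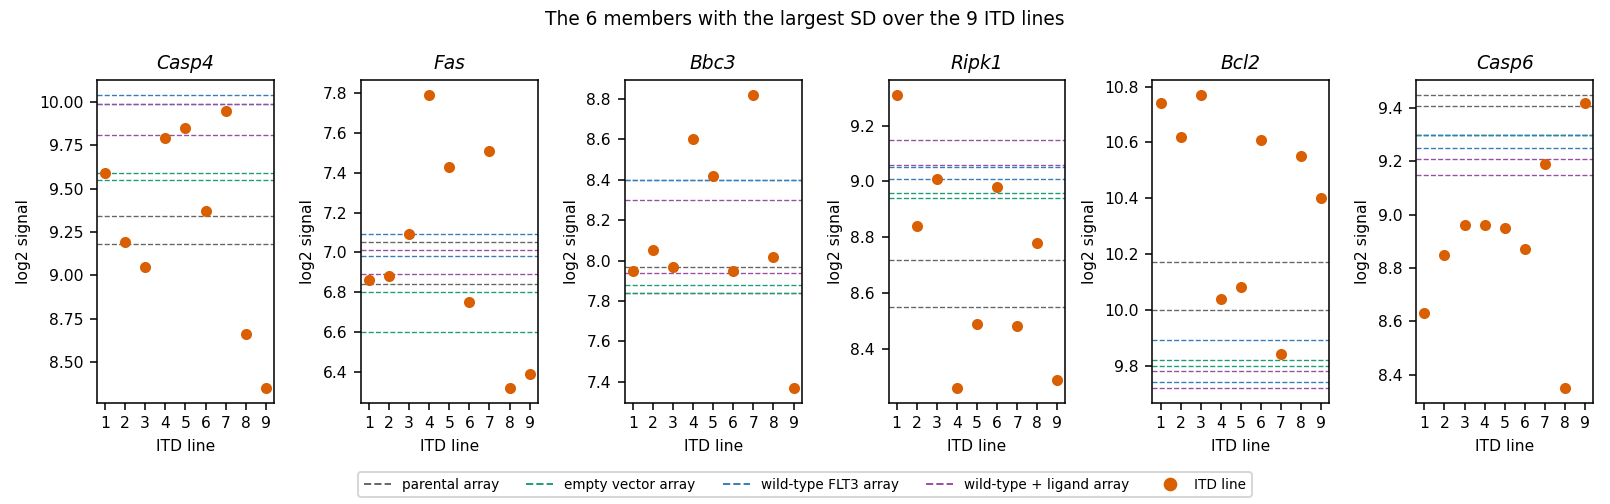
Log2 signal (vertical axes) of the 6 genes with the highest SD over the ITD lines, by ITD line 1 to 9 (horizontal axes), with dashed lines at the 8 control arrays. Lines 4, 5 and 7 are the 3 highest for Casp4, Fas and Bbc3 and the 3 lowest for Bcl2, where the 6 other lines exceed all control arrays.

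Further genes of cell death, listed by function, were read in the same comparison with the IL-3 controls. Of 34 other apoptosis genes, 31 were measured, 4 rose and 6 fell, or 32.3% against 19.4% of all genes, with a median difference of -0.08. Tnfrsf1b, the second receptor of tumour necrosis factor, fell by 1.18 ± 0.12 (limma adjusted p = 6.59e-06), with a mean of 7.48 in the ITD lines and 8.65 in the controls. It was below the control arrays in every ITD line and was also lower against wild-type cells (-1.51) and ligand cultures (-0.85). Nlrp3, the inflammasome sensor, fell by 0.91 ± 0.13 (adjusted p = 0.000111), but it was at -0.02 against parental cells. Il1b fell by 0.51 ± 0.16 (adjusted p = 0.0353). Pidd1, which encodes the activator of caspase 2, rose by 0.61 ± 0.13 (adjusted p = 0.00443). The mean of the monocyte marker genes was lower in the same ITD lines (6.25 to 7.24 against 7.37 to 8.72), though not each of these genes was. Their part in the values of Tnfrsf1b, Nlrp3 and Il1b was not tested.

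Of 12 genes of p53 and its targets, 11 were measured, 3 rose and none fell (27.3%, against 19.4% of all genes), with a median difference of 0.37. Eda2r, a p53-induced receptor of the tumour necrosis factor receptor family, rose by 0.98 ± 0.20 (limma adjusted p = 0.00267). Gtse1, a regulator of p53 in G2, rose by 0.69 ± 0.14 (adjusted p = 0.00223), and Aen, a p53-induced nuclease, by 0.42 ± 0.11 (adjusted p = 0.0166). Against wild-type cells 0 of the 11 were called by limma (7.71% of all genes), and the median difference was 0.05. At an unadjusted p under 0.05, not counted over all genes, 0 passed. Of 15 genes of survival signalling from cytokine receptors, 14 were measured, none rose and 1 fell (7.14%, against 19.4% of all genes), with a median of 0.06. That gene was Pik3ip1, an inhibitor of phosphatidylinositol 3-kinase, at -0.96 ± 0.08 (adjusted p = 6.57e-07). It was at -1.60 against parental cells and 0.00 against wild-type cells.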

How the data were processed

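The authors deposited log2 signals per probe set, which per the submitters' processing notes came from RMA (background correction, normalisation between arrays, probe summary) run in Expression Console 1.1 of Affymetrix. The genome build behind the annotation is not given in the sources used here. Of 1256831 probe sets, 318760 had 1 gene symbol in the platform annotation and 6684 had several and were left out. Symbols were updated through RefSeq (18006 of 22296 current, 4227 changed, 63 kept). Probe sets with a mean over the 17 arrays above 4.599, the median of such means, were averaged per gene, which used 237584 probe sets and gave 20227 genes.

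Group means of the 5 groups were fitted with limma 3.58.1 in R 4.3.3 (eBayes with a trend, 12 residual degrees of freedom). The 8 contrasts were tested two-sided, with Benjamini-Hochberg adjustment over all genes, and the same model was fitted to single probe sets. The 9 different mutants stand as replicates of 1 group and share 1 spread with the control pairs. Contrasts with a common group are not independent. The fit was checked on simulated data with 1 spread per gene for all groups, so that check does not cover unequal spread between groups. Precision is limited by how few arrays there are. The members and gene lists were chosen with earlier results of these data known. All members were accounted for. Members called in any contrast were given by control array and by the lowest, median and highest ITD value. Other lists were given by counts and up to 4 called genes with the largest differences and at least 2 probe sets. Alternatives changed the probe set filter, gene summary, normalisation, trend, arrays and controls. No array pair was identical. Same-numbered control arrays did not deviate together (correlations of deviations from -0.12 to 0.09), so replicate numbers were not taken as pairs.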

Additional observations from a re-analysis of the deposited data

Results flagged for a closer look

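In 4 of the 34 genes, 1 ITD line stood apart from the 8 others, with a gap to its nearest neighbour, as a share of the range of the 9 values, above Dixon's critical value, which chance passes in about 1 of 20 groups. The share of all genes past this value was not computed, so the count is not read as high or low. Casp2 was lowest in line 7, at 8.51 against 8.80 to 8.95 elsewhere, with a gap of 0.652 of the range. Mcl1 was lowest in line 9 (11.06, gap 0.599 of the range). Cycs was lowest in line 8 (8.43, gap 0.532 of the range). Cflar was highest in line 4 (8.85, gap 0.498 of the range).

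Apaf1 and Diablo were called in opposite directions in the ITD lines against parental and against wild-type cells. The difference between these controls, read after the data were seen, follows from those opposite differences. It is thus no separate test, and 14.6% of all genes were called in it by the same limma fit. Wild-type minus parental was -0.77 for Apaf1 (adjusted p = 0.000458), with both wild-type arrays below both parental arrays. It was 1.08 for Diablo (adjusted p = 0.00148), with both wild-type arrays above both parental arrays.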

How the results depend on the processing

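No called value of the set changed direction under any alternative run. Over 31 called values and 601 pairs of value and alternative, 458 kept the call and 143 lost it. Bcl2l1 against the IL-3 controls kept its call in 25 of 25 alternatives, Bak1, Bmf and Birc3 in 24, Bcl2 in 23, Bok and Casp6 in 20, Tnfrsf1a in 15, Hrk in 10 and Cycs in 9.

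The 10 calls against the IL-3 controls became 4 without the vector line (Bcl2l1, Bak1, Bmf and Birc3) and 1 with each control line averaged to a single unit (Bcl2l1, adjusted p = 0.0485), and ranged from 6 to 11 when 1 array was left out. The 6 calls against parental cells ranged from 2 to 8 in that way, the 6 against vector cells from 0 to 8, the 4 against wild-type cells from 0 to 7 and the 4 against ligand cultures from 0 to 7. Calls over all genes also moved when 1 array was left out, and fell most when that array came from a control group. With the median of the probe sets in place of the mean, the calls were 3 against vector cells and 1 against wild-type cells. Over all genes the median took the calls from 2838 to 2234 against vector cells and from 1559 to 1211 against wild-type cells. With only the compared groups in the fit, the calls of the set were 1 against wild-type cells and 2 against ligand cultures, with 843 and 678 over all genes.

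Among the control groups, ligand on wild-type stayed at 0 calls whichever array was left out, and gave 2 with only the compared groups in the fit (Tnfrsf1a and Fadd). The single call of wild-type against vector became 2 with the median, 2 with quantile normalisation, 0 without the trend, 7 with only the compared groups and 0 whichever array was left out. Vector against parental gave 1 with the stricter filter (Bcl2l1), 3 with only the compared groups and 0 to 1 with 1 array left out.

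A replicate block on the 8 control arrays gave 2 calls for ligand on wild-type, 9 for wild-type against vector and 4 for vector against parental. A block with the ligand numbers crossed, chosen after seeing the data, gave 3 for ligand on wild-type. Same-numbered arrays are not known to be pairs, and the ITD lines carry no replicate number, so no block was fitted for them.

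Counts over all genes also moved. The 1662 genes called for wild-type against vector became 1276 with the median, 1676 with quantile normalisation and 1478 without the trend. The 451 for vector against parental became 552 with the stricter filter. The 3917 genes called against the IL-3 controls became 2477 without the parental line, 2221 without the vector line and 466 with lines as units. With only the compared groups in the fit, the 1559 against wild-type cells became 843, the 1173 against ligand cultures 678, the 0 for ligand on wild-type 949, the 1662 for wild-type against vector 4883 and the 451 for vector against parental 2013. The replicate block gave 864, 4382 and 2418 for the last 3, the crossed block 1571 for ligand on wild-type, and quantile normalisation 681 for vector against parental. The cause of these shifts was not tested.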
